A study of Rattus norvegicus with 25 samples.

Results

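The 5 entries described here are rno-miR-199a-3p, rno-miR-199a-5p, rno-miR-214-3p, rno-miR-214-5p and rno-miR-21-5p (rno for rat), found by name among the 764 rat mature miRNAs of one count table. Small RNA had been sequenced from mitochondria of the red gastrocnemius, an oxidative part of a hindlimb muscle, of male Wistar-Kyoto rats. Rats were allocated at 5 weeks of age. The endurance trained group (n = 13) did treadmill running, 5 days per week over 4 weeks, and the sedentary group (n = 12) stood on a treadmill that did not move. All libraries of both groups came from mitochondria incubated with RNase A for 1 h before lysis. Libraries are named by group and by the number in their title, 1 library to a rat. Nothing in the labels gives a litter or a batch, so p-values measure the spread between these libraries.

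MicroRNAs are short RNAs cut from a hairpin, whose seed pairs with target mRNAs and lowers their translation or stability. One arm of the hairpin is usually retained as the guide and the other is degraded. miR-199a and miR-214 are carried by the same long transcript opposite to the dynamin gene Dnm3, which is switched on by TWIST1 in mesenchymal cells. miR-199a is also made from a copy in another dynamin gene. miR-21 comes from its own transcript beside Vmp1. All are known from fibroblasts and connective tissue, and miR-21, miR-199a and miR-214 have been tied to fibrosis of heart, kidney and lung.

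The mature sequences are shown because the seed (bases 2 to 8, in capitals) decides which mRNAs a miRNA can pair with, and because the arms counted below differ in sequence. They are given 5′ to 3′ from RefSeq on the rat assembly GRCr8, where all 5 matched by name.
rno-miR-199a-5p: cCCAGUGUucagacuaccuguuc
rno-miR-199a-3p: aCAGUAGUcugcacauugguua
rno-miR-214-5p: aGAGUUGUcaugugucu
rno-miR-214-3p: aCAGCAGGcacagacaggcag
rno-miR-21-5p: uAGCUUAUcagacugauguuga
The 5 seeds were all different, and none was shared by another of the 687 entries of the table with a RefSeq sequence. In GRCr8 miR-199a-5p lies at chr13:77116255-77116277 and miR-199a-3p at chr13:77116294-77116315, on the plus strand. The hairpin of miR-214 lies at chr13:77121645-77121752 on the same strand, and 5340 bases separate miR-199a-3p from miR-214-5p. Both precursors fall within the span of Dnm3, which is on the minus strand. miR-21-5p lies at chr10:71902653-71902674 on the minus strand. The deposited table has no coordinates of its own.

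The hairpin of miR-214 is printed with both annotated mature entries in capitals, because the 5p entry had no count in any library. That entry is 17 bases long. Its 0 counts do not speak for reads from other bases on that side of the hairpin.
miR-214 hairpin: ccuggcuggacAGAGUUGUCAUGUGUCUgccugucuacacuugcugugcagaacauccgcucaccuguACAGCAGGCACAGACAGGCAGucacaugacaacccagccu
Another hairpin, miR-3120, is annotated on the opposite strand and shares 106 bases with it. Mature miR-3120 overlaps miR-214-5p by 1 base and miR-214-3p by 0. The sources used here do not give the strand setting of the counting. miR-3120 had 19 counts in all, every one in sedentary library 3, at 177 CPM (the count divided by the library total and scaled to 1000000).

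Depth limited what could be seen of the rarer entries. Library totals ran from 26793 to 202388 counts in trained rats and from 12181 to 186006 in sedentary rats. In a single library, 0 counts allowed a level of up to 14.8 to 246 CPM (3 counts of the total, counting error only). The labels name no molecular identifiers, so such limits and the counting intervals below do not cover PCR. Of the 13 skeletal muscle markers 9 had a count, and their sum ran from 21.3% to 40.8% of counts with training and from 19.0% to 42.8% without. Of 4 smooth muscle markers 4 had a count (0.805% to 3.48% with training, 0.831% to 5.55% without), and of 6 endothelial markers 3 (0.161% to 1.11%, and 0.256% to 1.92%). Of 11 leukocyte markers 6 had a count (0% to 0.641%, and 0.00318% to 0.594%). In that list miR-142-3p, miR-223-3p and both arms of miR-155 were at 0 counts, and miR-146a-5p had the most, with 3762. Of 5 red cell markers, both arms of miR-451 and of miR-144 were at 0 counts, and miR-486, which the muscle list also holds, ran from 1.01% to 5.27% with training and from 1.00% to 4.75% without. The part of other cells in the values below was not tested. Fewer connective tissue cells beside the mitochondria and less of a miRNA per cell cannot be told apart in such libraries.

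miR-199a-3p was by far the most abundant of the 5. It held 3311 ± 2338 CPM (SD, n = 25), had a count in 24 of 25 libraries, and ranked 36 of 764 by mean level. miR-21-5p followed with 1104 ± 2081 CPM and a count in 22 libraries, at rank 60. miR-214-3p had 232 ± 562 CPM and a count in 11 libraries, and miR-199a-5p 57.3 ± 211.7 CPM and a count in 5 (SD, n = 25). miR-214-5p had 0 of 2094773 counts, which allows up to 1.43 CPM over all libraries. Each read stands for a whole miRNA, so no scaling by length was made. Together the 5 took 0.470% ± 0.371 of counts (SD, n = 25).

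The order of these levels was not the same in every library. miR-199a-3p exceeded miR-21-5p in 22 of 25 libraries. miR-21-5p exceeded miR-214-3p in 19, was below it in 3 and equalled it in 3. Between miR-214-3p and miR-199a-5p, 12 libraries were tied, 11 had more of the first and 2 more of the second. For miR-21-5p, miR-214-3p and miR-199a-5p, the SD over libraries was larger than the mean. Among the libraries that were not tied, the order above was the more frequent one at each step.

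The question of the design was whether 4 weeks of training changed the level of these miRNAs in muscle mitochondria. In the samples, miR-199a-3p was on average higher in trained rats, and miR-21-5p, miR-214-3p and miR-199a-5p were lower, but none of these differences passed the test. Only 2 of the 5 members, miR-199a-3p and miR-21-5p, had enough counts for the model fitted to all miRNAs (edgeR, 76 rows after the filter on low counts). That model called 0 of 76, or 0% of the rows tested, at a Benjamini-Hochberg adjusted p under 0.05. At an unadjusted p under 0.05 there was 1 miRNA, or 1.32%, which was miR-148a-3p and no member. DESeq2 called 0, with 8 of 260 at an unadjusted p under 0.05, and limma-voom called 0, with 14 of 76.

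miR-199a-3p, the usual main product of the miR-199a hairpin in many tissues, ran from 498.5 CPM through a median of 3694 to 8696 in trained libraries. In sedentary libraries it ran from 0 through 2129 to 6215 CPM. The groups overlapped, with 10 of 13 trained libraries above the sedentary median. At the lower end, 4 of 12 sedentary libraries lay below every trained one. Trained libraries averaged 3814 ± 2169 CPM (SD, n = 13) and sedentary libraries 2765 ± 2483 CPM (SD, n = 12). The log2 fold change, trained minus sedentary, was 0.81 (SE 0.64, 95% interval -0.48 to 2.10, p = 0.213, edgeR adjusted p = 0.916). The difference in mean CPM of 1050 had p = 0.272 (two-sided permutation test, adjusted p = 0.852; of all miRNAs so tested 0% were called and 4.17% had an unadjusted p under 0.05) and went to 643 CPM without trained library 27. With library sizes scaled by TMM factors, as in the edgeR model, it was 1846 CPM (permutation test, p = 0.0854, adjusted p = 0.897).

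The 4 sedentary libraries with little miR-199a-3p were numbers 15, 16, 19 and 29. Library 15 had 10 counts (159 CPM), library 16 had 2 (53.5 CPM), library 19 had 3 (246 CPM) and library 29 had 0 of 76048, which allows up to 39.4 CPM. Library 19 was the shallowest of all with 12181 counts, but libraries 15 and 29 had 62797 and 76048. The low values were not shared by all members. miR-21-5p was at 79.6, 107 and 0 CPM in libraries 15, 16 and 19 but at 1183 CPM, 90 counts, in library 29. Several lists were low in some of these libraries too, when set against the other 8 sedentary ones. The list of 26 other connective tissue and fibroblast miRNAs took 5.44%, 6.88%, 4.31% and 2.67% of counts in libraries 15, 16, 19 and 29, against 4.98% to 15.1% in the other 8, so libraries 19 and 29 lay below all of them. The list of 15 other fibrosis-promoting miRNAs took 0.00637%, 0.450%, 0.0657% and 0.0131%, against 0.198% to 1.33%, so libraries 15, 19 and 29 lay below all of them. Skeletal muscle markers took 32.3%, 27.5%, 39.8% and 42.8%, against 19.0% to 31.3%, so libraries 15, 19 and 29 lay above all of them. Smooth muscle markers were below the other 8 in library 29 (0.831%, against 0.921% to 5.55%) and leukocyte markers in library 15 (0.00318%, against 0.195% to 0.594%). Fibrosis-restraining miRNAs were below the other 8 in library 15 (0.403%, against 0.714% to 4.12%), and miR-486 was above them in library 15 (4.75%) and below them in library 29 (1.00%, against 1.44% to 4.04%). Endothelial markers lay within the range of the other 8 in all 4. In trained libraries the connective tissue list ran from 2.60% to 11.3%, the fibrosis-promoting list from 0.00702% to 1.41% and the muscle markers from 21.3% to 40.8%. These 2 non-muscle lists share miR-125b-5p and are not independent. The 4 libraries were picked by their miR-199a-3p, so the values of the lists are a description. The part of cell makeup in these values was not tested.

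The group difference of miR-199a-3p was near 0 among low title numbers and larger among high ones. Among numbers up to 13, miR-199a-3p ran from 1149 through 3981 to 5711 CPM in 6 trained and from 1845 through 4038 to 6215 CPM in 6 sedentary libraries, and the log2 fold change was -0.15 (SE 0.54, edgeR p = 0.776, adjusted p = 0.995). Among numbers above 13, it ran from 498.5 through 3694 to 8696 CPM in 7 trained and from 0 through 203 to 5213 CPM in 6 sedentary libraries, with a log2 fold change of 2.24 (SE 1.04, edgeR p = 0.0323, adjusted p = 0.351). Set against each other, the ranges differed in their group difference by 2.45 on the log2 scale (SE 1.27, edgeR p = 0.0587, adjusted p = 0.496) and did not pass the test. That joint fit called 1 of 76 miRNAs (1.32%), miR-150-3p of the leukocyte list (edgeR adjusted p = 0.0211), named here after its value was seen. In the same fit 7 had an unadjusted p under 0.05. Depth moved with the same split in trained libraries, and less so in sedentary ones. Median totals up to 13 were 34916 in trained and 85395 in sedentary libraries, and above 13 they were 137114 and 69423. In trained libraries totals did not overlap between the ranges, so a change with title number and one with depth cannot be told apart. Sedentary totals did overlap. Sedentary library 29 had 0 CPM at a total of 76048, and library 12 had 1845 CPM at 76432. The other way, sedentary library 32 had 3373 CPM at 94573 and library 8 had 2226 CPM at 94358. With log2 library total as covariate, the log2 fold change over 25 libraries was 0.84 (SE 0.63, edgeR). The part of depth in the change with title number was not tested. The labels do not say what the number stands for beyond naming the rat's library. The boundary was taken from an earlier look at the totals of these same libraries, and the joint fit was added after the values were seen. The p-values within and between the ranges are therefore descriptive.

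**Figure D1:**
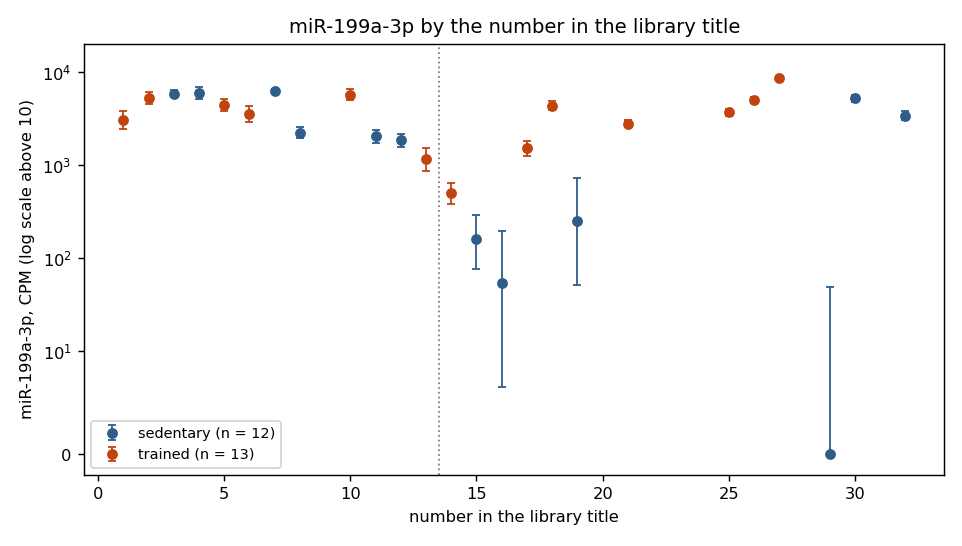
miR-199a-3p in CPM (logarithmic above 10) against the number in the library title, for sedentary (blue, n = 12) and trained (orange, n = 13) rats. Bars are exact 95% binomial intervals for counting error only, and the dotted line separates numbers up to 13 from those above. Sedentary libraries 15, 16, 19 and 29 lie between 0 and 246 CPM, below all trained libraries.

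miR-21-5p, a miRNA raised in many injured and fibrotic tissues, had the lowest log2 fold change of all 76 miRNAs tested, and one of the wider errors (SE rank 10 of 76). It ran from 0 through a median of 103 to 2173 CPM in trained libraries, and from 0 through 863 to 10188 CPM in sedentary ones. The groups overlapped over the whole trained range. Values fell into very low and clearly measured ones: 6 of 13 trained and 8 of 12 sedentary libraries had 10 or more counts, and 5 and 3 had 1 to 9. The log2 fold change was -1.25 (SE 1.04, 95% interval -3.33 to 0.83, p = 0.234, edgeR adjusted p = 0.916), with means of 573 ± 738 CPM (trained, SD, n = 13) and 1680 ± 2857 CPM (sedentary, SD, n = 12). Sedentary library 4, with 311 counts of 30527, carried much of this. Without it the value was -0.33 (edgeR adjusted p = 0.976), and without trained library 21 it was -1.98 (edgeR adjusted p = 0.953). The difference in mean CPM of -1107 had p = 0.172 (permutation test, adjusted p = 0.844) and went to -333 without sedentary library 4. Among numbers up to 13 the log2 fold change was -1.96 (SE 1.22) and among those above 13 it was -0.32 (SE 1.66), which differ by 1.76 (SE 2.09, edgeR p = 0.404, adjusted p = 0.757).

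**Figure D2:**
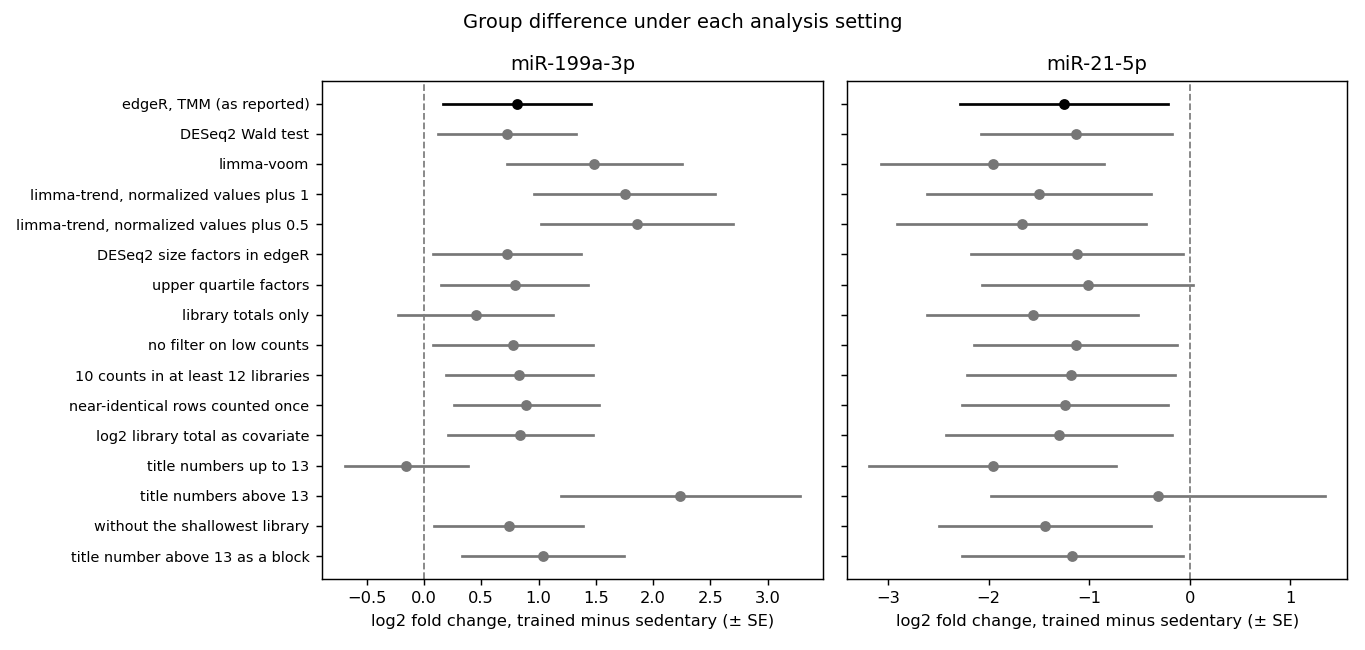
Log2 fold change, trained minus sedentary, of miR-199a-3p (left) and miR-21-5p (right), with bars of 1 SE, for the reported edgeR fit (black) and 15 other settings (grey). miR-199a-3p is positive in every setting shown but title numbers up to 13, at -0.15, and miR-21-5p is negative in all settings shown, from -1.96 to -0.32.

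miR-214-3p, the guide arm of miR-214, was present in few libraries. 6 libraries with 10 or more counts held 98.6% of its 442 counts. Among trained rats only library 2 was one of them, with 65 counts (1821 CPM). Among sedentary rats they were library 3 with 47 counts (439 CPM), library 7 with 89 (478 CPM), library 11 with 2205 CPM, library 30 with 48 (450 CPM) and library 32 with 33 (349 CPM). The remaining libraries had 0, 1 or 2 counts. A level of 10 or more counts was thus reached in 1 of 13 trained and 5 of 12 sedentary libraries (Fisher's exact test, two-sided, p = 0.0730, adjusted p = 1 over 215 miRNAs, of which 0% were called). With at least 1 count, the numbers were 4 of 13 and 7 of 12 (Fisher's exact test, p = 0.238, adjusted p = 1 over 220 miRNAs, of which 0% were called). At an unadjusted p under 0.05 there were 2 of 215 (0.93%) and 6 of 220 miRNAs (2.73%), and no member was among them.

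Thinning all libraries to 12181 counts gave an expected 1.35 trained and 5.33 sedentary libraries with miR-214-3p. The gap in detection had the same direction at equal depth. Its mean level was 142.4 ± 505 CPM with training (SD, n = 13) and 329 ± 626 CPM without (SD, n = 12). The difference of -187 CPM had p = 0.467 (permutation test, adjusted p = 0.901, over the same miRNAs). It was moved by 1 library in each group, in opposite directions. Without trained library 2 it was -327 CPM (permutation test, p = 0.0122, adjusted p = 0.763), and without sedentary library 11 it was -16.2 CPM (permutation test, adjusted p = 1). With no filter on low counts, edgeR gave a log2 fold change of -1.35 (SE 1.53, adjusted p = 0.666).

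miR-199a-3p and miR-214-3p can derive from one transcript, but many libraries with much of the first had little or none of the second. In the 6 libraries with 10 or more counts of miR-214-3p, miR-199a-3p lay between 2033 and 6215 CPM. 11 of the other 19 libraries also had more than 2033 CPM of miR-199a-3p, with at most 2 counts of miR-214-3p. Trained library 27, the highest in miR-199a-3p with 1760 counts, had 0 of miR-214-3p. In these 6 libraries the count of miR-199a-3p relative to miR-214-3p was 13.3 in sedentary library 3, 13.0 in library 7, 11.6 in library 30 and 9.67 in library 32, but 0.922 in sedentary library 11 and 2.88 in trained library 2. 4 sedentary libraries of these 6 were thus close to each other in this ratio. Another 5 libraries had both miRNAs but only 1 or 2 counts of miR-214-3p, beside 10 counts of miR-199a-3p in sedentary library 15, 61 in trained library 14, 472 in trained library 21, 678 in trained library 26 and 1845 CPM in sedentary library 12. Sedentary library 11 was alone in having more miR-214-3p than miR-199a-3p.

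With 0.5 added to both counts, and in libraries where both summed to at least 10, the log2 ratio of miR-199a-3p to miR-214-3p averaged 7.77 ± 2.54 with training (SD, n = 13) and 4.52 ± 2.87 without (SD, n = 9). The ratio is a description. It was not tested, because the pair was chosen with earlier results known, and most of its trained values rest on 0 counts of miR-214-3p. Such values follow the count of miR-199a-3p alone and so rise with depth. The sedentary libraries left out were 16, 19 and 29, with 2, 3 and 0 counts of miR-199a-3p.

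**Figure D3:**
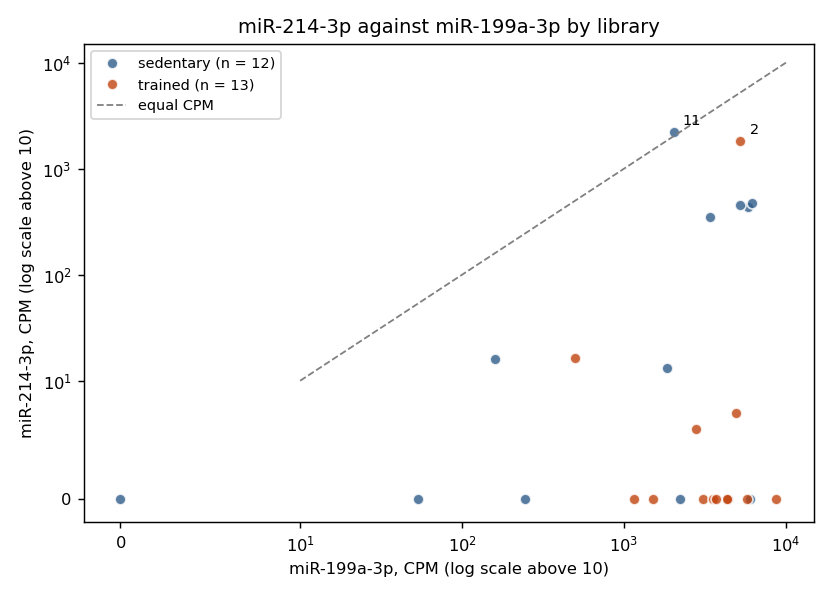
miR-214-3p against miR-199a-3p in each library, both in CPM on axes that are logarithmic above 10, for sedentary (blue, n = 12) and trained (orange, n = 13) rats. The dashed line marks equal CPM, and sedentary library 11 and trained library 2 carry their title number. Sedentary library 11 lies just above the line, and most trained libraries lie at or near 0 of miR-214-3p across the range of miR-199a-3p.

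Paired 3p and 5p entries had very unequal counts. miR-199a-3p made up 98.7% of the counts of both miR-199a entries (8108 of 3p and 105 of 5p, exact 95% interval 98.45% to 98.95%, counting error only). The counts do not tell apart the copies of the miR-199a hairpin. Per library with 10 or more counts of the pair, its share averaged 99.7% ± 0.595 with training (SD, n = 13) and 94.95% ± 11.4 without (SD, n = 9). All 105 counts of miR-199a-5p, an arm with hypoxia signalling among its described targets, came from 5 libraries. Sedentary library 11 had 72 (1031 CPM) and sedentary library 8 had 28 (297 CPM), while trained library 2 had 3 and trained libraries 14 and 18 had 1 each. Library 11 was the lowest in 3p share, at 66.4%, and it was also the library with the most miR-214-3p. Outside these 5 libraries the 5p arm was at 0.

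By detection, miR-199a-5p had a count in 3 of 13 trained and 2 of 12 sedentary libraries (Fisher's exact test, p = 1, adjusted p = 1), but 10 or more counts in 0 and 2 (Fisher's exact test, p = 0.220, adjusted p = 1). Trained libraries averaged 8.14 ± 23.2 CPM (SD, n = 13) and sedentary ones 111 ± 302 CPM (SD, n = 12). The difference of -102 CPM (permutation test, p = 0.346, adjusted p = 0.901) went to -18.8 without sedentary library 11. With no filter on low counts, edgeR gave a log2 fold change of -3.69 (SE 1.94, p = 0.0579, adjusted p = 0.179). That setting was unlike the others, as it called 66 of 260 miRNAs. DESeq2, fitted to 260 miRNAs as well, gave -1.77 for miR-199a-5p (SE 2.95, p = 0.548, adjusted p = 0.989). For miR-214, all 442 counts of its paired entries were of miR-214-3p (exact 95% interval of its share 99.2% to 100%). This share covers only the annotated entries, and that of miR-214-5p is 17 bases long. For miR-21, all 2000 counts were of the 5p arm and 0 of miR-21-3p, its passenger strand (exact 95% interval 99.8% to 100%). The sources used here do not state whether entries were filtered, so these 0 values are values of the table and do not show absence.

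Detection of the more abundant members did not pass the test either. miR-199a-3p had a count in 13 of 13 trained and 11 of 12 sedentary libraries (Fisher's exact test, p = 0.480, adjusted p = 1), and 10 or more in 13 and 9 (Fisher's exact test, p = 0.0957, adjusted p = 1). miR-21-5p had a count in 11 of 13 and 11 of 12 (Fisher's exact test, p = 1, adjusted p = 1), and 10 or more in 6 and 8 (Fisher's exact test, p = 0.428, adjusted p = 1). Thinned to 12181 counts, the expected numbers for miR-21-5p were 7.62 of 13 and 9.69 of 12.

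miR-199a-3p and miR-21-5p, the members with a count in at least 12 libraries, were compared across rats. Over 25 libraries Pearson's r of log2 CPM was 0.14 (permutation test, p = 0.516) and Spearman's rho was 0.22 (permutation test, p = 0.300), 1 pair being tested, so that adjustment leaves p as it is. Without the 2 libraries farthest from the median in miR-199a-3p, r was 0.33. Within trained rats rho was 0.13 (n = 13, permutation test, p = 0.665) and within sedentary rats 0.35 (n = 12, permutation test, p = 0.267). It was 0.35 among numbers up to 13 (n = 12) and -0.080 among those above 13 (n = 13). The entries whose log2 CPM ranked libraries most like miR-199a-3p were miR-100-5p (Spearman's rho 0.50), miR-22-3p (0.47) and miR-485-5p (0.45), over 25 libraries and 75 entries compared, with a median rho of 0.038. Those most like miR-21-5p were miR-30a-5p (0.49), miR-99a-5p (0.46) and let-7d-5p (0.44), with a median of 0.032. The lowest rho among the 75 entries was -0.42 with miR-199a-3p and -0.58 with miR-21-5p. For miR-21-5p the lowest rho was thus larger in size than those of the entries named. All these points share library depth, whose own rho was 0.37 with miR-199a-3p and 0.17 with miR-21-5p.

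Other miRNAs of connective tissue and fibrosis did not pass the test either. Of 26 further connective tissue and fibroblast miRNAs, 11 were tested, 5 had positive and 6 negative values, and 0 passed, with a median log2 fold change of -0.32 beside -0.0081 over all 76. As levels, miR-127-3p, an imprinted miRNA, was at 15694 ± 8876 CPM with training (SD, n = 13) and 16782 ± 9339 CPM without (SD, n = 12), and miR-99a-5p, a regulator of mTOR, at 14721 ± 9054 and 14921 ± 8885 CPM (SD, n = 13 and 12). As log2 fold changes these were 0.021 (SE 0.38) and 0.19 (SE 0.30), with edgeR adjusted p = 0.999 and 0.971. Of 26 miRNAs described as restraining fibrosis, 6 were tested, 3 positive and 3 negative with a median of 0.049, and 0 passed. The positive values included miR-133a-3p and a near-identical relative of it, so these counts and the median are not of 6 independent miRNAs. The lowest value was that of miR-30a-5p, at -1.08 (SE 0.88). miR-26a-5p was at 0.21 (SE 0.37), miR-133a-3p, a muscle miRNA with near-identical relatives in the table, at 0.16 (SE 0.88). Of 15 further miRNAs described as promoting fibrosis only miR-125b-5p was tested, at -0.32 (SE 0.69, edgeR adjusted p = 0.973).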

How the data were processed

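The authors deposited raw counts, whole numbers per mature miRNA and library with empty cells read here as 0, and normalized values, a signal equal to the count divided by 1 size factor per library (constant to a relative 1.59e-09). Tools named in the submitters' processing notes were DESeq2 1.36 and fastp 0.20.0. Aligner, counting tool, strand setting, treatment of reads with several matches and genome build are not stated in the sources used here. In the counts, 17 pairs of entries were near-identical (within 10%), such as miR-1-3p and miR-3571, and no pair held a member. Library totals, CPM and shares sum all entries, so reads shared by such pairs would be in them more than once. Per the labels' protocols, libraries had 20 PCR cycles. Groups came from the titles. All 144 within-group pairs of libraries differed beyond counting error (chi-square at least 20.7 per degree of freedom).

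CPM is the count relative to the library total. The test was edgeR 4.0.16 (R 4.3.3), quasi-likelihood, TMM factors, filterByExpr, no covariates, on all 25 libraries, adjusted by Benjamini-Hochberg over 76 rows with a threshold of 0.05. The filter kept 2 of the 5 members. On simulated counts for the 76 rows, with 24 altered at once, it recovered 16.2%, 65.6% and 84.4% of 2-, 4- and 8-fold changes (160 each). Permutation tests had 100000 resamples (numpy 2.4.6), and Fisher's exact tests used scipy 1.17.1. log2 CPM for correlations had a prior count of 2. The edgeR standard errors were derived from the test, as the absolute log2 fold change divided by the square root of F. Their 95% intervals used a t quantile on these errors. Alternatives were DESeq2 1.42.0, limma 3.58.1, other scalings, filters and thresholds, title number ranges, and leaving out each library. A title number block and a joint fit with a range term were added after seeing the data.

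The members, lists and tests were chosen with earlier results of these data known. Named miRNAs were the members, the 3 tested entries most like each tested member, the 2 most abundant tested entries of each list, and entries antisense to, or the other arm of, a member. The endothelial list took 0.583% ± 0.257 of counts with training (SD, n = 13) and 0.808% ± 0.524 without (SD, n = 12), and the leukocyte list 0.211% ± 0.208 and 0.352% ± 0.176. Of both and the smooth muscle and red cell lists, 5 tested entries all had negative values, and 0 passed. Of the muscle list 7 were tested, 6 positive, and 0 passed. The positive entries included miR-133a-3p together with near-identical relatives of it, so they are not independent. The negative entry was miR-486, which is also among the 5 above through the red cell list. Over all 76 miRNAs tested, 37 values were positive and 39 negative.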

Additional observations from a re-analysis of the deposited data

How the results depend on the processing

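0 miRNAs were called in 14 of 15 other settings and in 25 of 25 settings without a library, where 1 to 7 miRNAs had an unadjusted p under 0.05; with no filter on low counts edgeR called 66 of 260, and no member was among them. Scaling moved the median log2 fold change of all miRNAs from -0.0081 to -0.16 with DESeq2 size factors and -0.29 with library totals only, relative to which miR-199a-3p was at 0.89 and 0.74 and miR-21-5p at -0.96 and -1.27. miR-199a-3p was at 0.60 to 1.01 without a library and at -0.15 to 2.24 in other settings (adjusted p 0.272 to 0.995); it changed sign among numbers up to 13, at -0.15, where its difference in mean CPM was -168. miR-21-5p was at -1.98 to -0.33 without a library and -1.96 to -0.32 in other settings (adjusted p 0.301 to 0.995). The difference in detection of miR-199a-5p, 6.41 percentage points, was -16.7 at 10 or more counts, -16.7 among numbers up to 13 and -8.96 when thinned; that of miR-21-5p, -7.05, was 2.38 among numbers above 13; and that of miR-214-3p stayed negative, from -50.0 to -7.14. The Spearman correlation between miR-199a-3p and miR-21-5p was -0.080 among numbers above 13. The cause of these changes was not tested. The group difference in the log2 ratio of miR-199a-3p to miR-214-3p was 2.67 to 3.77 without a library, and it rests on the same 0 counts of miR-214-3p. No paired analysis was possible because trained and sedentary rats share no title number. For miR-199a-5p above number 13 no difference in mean CPM was computed, with a count in fewer than 3 libraries.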

Other observations

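The title numbers held a run of low miR-199a-3p that crossed both groups, noticed after the values were seen. Of the 7 libraries with the least miR-199a-3p, 6 carried a number from 13 to 19, the other being sedentary library 29. In the order of their numbers, trained library 13 was at 1149 CPM, trained 14 at 498.5, sedentary 15 at 159, sedentary 16 at 53.5, trained 17 at 1516 and sedentary 19 at 246. Trained library 18, within this run, was at 4343 CPM. The labels do not say in what order rats were handled or libraries made, and no test was run.

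Sedentary library 11 stood out in the rarer entries, with 2205 CPM of miR-214-3p and 1031 CPM of miR-199a-5p beside 2033 CPM of miR-199a-3p, at a total of 69854 counts. Trained library 2 had 1821 CPM of miR-214-3p, 84.1 CPM of miR-199a-5p and 5240 CPM of miR-199a-3p, at a total of 35685 counts. These were the libraries with the most miR-214-3p by CPM, and both also had a count of miR-199a-5p.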
